A study of Mus musculus with 9 samples.

Results

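The nuclear-encoded subunits of mitochondrial complex I were examined in brown fat of adult mice. They were 35 genes chosen by name from a table of 55416 genes, with no threshold on their values, and all 35 were found and passed a filter of a mean count of at least 10, as did 13227 genes in all. Complex I (NADH:ubiquinone oxidoreductase) takes electrons from NADH, passes them through a flavin and a chain of iron-sulfur clusters to ubiquinone, and pumps protons across the inner mitochondrial membrane. Its subunits fall into an N module, which oxidises NADH, a Q module, which reduces ubiquinone, and a proton-pumping membrane arm with a proximal and a distal part. Mitochondrial DNA encodes hydrophobic core subunits of the membrane arm, and nuclear DNA encodes the others. Brown fat is rich in mitochondria, and the respiratory chain builds the proton gradient that the uncoupling protein Ucp1 dissipates as heat.

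The series holds 9 samples of interscapular brown adipose tissue (BAT) from Cas9-expressing C57BL/6J mice of 8 to 10 weeks of age. An AAV8 vector with a guide RNA was injected into the tissue, and housing at 22 °C for 14 days followed. AAV8-Control sgRNA was given for 5 samples and AAV8-UCP1 sgRNA for 4, so the Cas9 transgene and a vector injection were common to all. The sources used here do not give the promoter that drives Cas9 or say how many animals stand behind each sample. Each value column is named by a number and the tissue, and 0 of the 9 numbers occur in the sample labels. The 9 libraries were therefore taken as brown fat that received either guide, with no library given to a guide, and no comparison between the guides was made. Libraries are lettered A to I in ascending order of the number in their column name, and the letters carry no other meaning. All values below describe the spread over a set that mixes both guides in an unknown arrangement, so the guide, the animal and the library preparation cannot be told apart as sources of that spread.

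Total counts ranged from 15460829 to 17909534 per library. Mitochondrially encoded genes took 22.3% to 33.9% of the counts. All 8 brown adipocyte markers examined were present, with a summed level of 3129 to 4297 counts scaled to a column sum of 1000000 (CPM). The 8 skeletal muscle markers differed 18.4-fold in their sum, from 167 CPM in library C to 3069 CPM in library F, and the 5 macrophage markers ranged from 31.2 CPM in library D to 90.9 CPM in library H. No 2 of the 36 pairs of libraries agreed within sampling noise.

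The starts of the genes are shown first, since the subunit transcripts moved together over the libraries. RefSeq promoter windows of assembly GRCm38.p6, which run from 250 bases before to 50 bases after the annotated start, were found for 32 of the 35 genes; Ndufa2, Ndufb9 and Ndufs1 are named only. Short motifs were searched on either strand. The YY1 motif AAGATGG was present in windows of 7 of the 32 genes (21.9%; Ndufa3, Ndufa9, Ndufb8, Ndufc1, Ndufs4, Ndufs6 and Ndufs7) and of 7.28% of 27025 genes with a window, or 7.18% of protein-coding genes. All 7 matches lay on the gene's own strand, beginning 23 to 39 bases into the annotated transcript. The motif includes the letters ATG, the usual start codon, and whether the matches lie at the start of translation was not tested. Among 1389 matches in windows of other protein-coding genes, 24.3% lay after the start on the gene's strand. The motif of nuclear respiratory factor NRF1, which is nearly its own reverse complement so that matches on opposite strands can overlap, was present for 4 genes (12.5%) against 2.77% of all genes and 3.81% of protein-coding genes. Member windows had a median GC content of 59.2%, against 52.7% for all windows and 56.3% for those of protein-coding genes. The nuclear receptor element AAGGTCA, bound by estrogen-related receptors among others, was present for 3 genes (9.4%) against 5.38% of all and 4.73% of protein-coding genes. The ETS family motif CCGGAAG was present for 4 genes (12.5%) against 9.93%, or 12.95% of protein-coding genes. A CCAAT box was found for 10 genes (31.2%) against 41.06% of all and 42.32% of protein-coding genes. These matches are a description of letters in a window and do not show binding.

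Windows of 4 genes illustrate the matches, which are in capitals, each read 5′ to 3′ on the gene's strand. The longer run of capitals in Ndufs5 and Ndufb4 is the NRF1 motif, in which the base after the only A was free in the search, and the shorter is the nuclear receptor element or its reverse complement. Ndufs7 and Ndufs4 carry the YY1 motif after the start, and Ndufs5 and Ndufb4 carry both the NRF1 motif and the nuclear receptor element before it. Ndufs7 lies at chr10:80249199-80249498 (plus strand), Ndufs4 at chr13:114388045-114388344 (minus strand), Ndufs5 at chr4:123718137-123718436 (minus strand) and Ndufb4 at chr16:37654319-37654618 (minus strand).
Ndufs7: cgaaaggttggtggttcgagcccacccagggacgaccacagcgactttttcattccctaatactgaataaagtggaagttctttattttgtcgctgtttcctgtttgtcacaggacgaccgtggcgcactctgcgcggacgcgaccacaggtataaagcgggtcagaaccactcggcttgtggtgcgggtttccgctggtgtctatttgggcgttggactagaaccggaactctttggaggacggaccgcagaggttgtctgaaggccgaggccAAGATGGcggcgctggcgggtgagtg
Ndufs4: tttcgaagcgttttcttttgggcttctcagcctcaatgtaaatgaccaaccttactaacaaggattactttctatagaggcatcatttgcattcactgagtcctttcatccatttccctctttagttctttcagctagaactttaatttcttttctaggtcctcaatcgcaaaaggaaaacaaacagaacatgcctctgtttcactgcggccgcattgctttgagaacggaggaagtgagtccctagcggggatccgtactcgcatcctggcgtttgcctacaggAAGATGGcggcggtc
Ndufs5: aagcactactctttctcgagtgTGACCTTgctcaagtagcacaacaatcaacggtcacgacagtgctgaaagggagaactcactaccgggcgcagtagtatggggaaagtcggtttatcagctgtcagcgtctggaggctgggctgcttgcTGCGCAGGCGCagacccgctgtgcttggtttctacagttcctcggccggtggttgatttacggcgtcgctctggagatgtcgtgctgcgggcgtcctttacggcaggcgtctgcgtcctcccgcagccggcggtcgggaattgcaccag
Ndufb4: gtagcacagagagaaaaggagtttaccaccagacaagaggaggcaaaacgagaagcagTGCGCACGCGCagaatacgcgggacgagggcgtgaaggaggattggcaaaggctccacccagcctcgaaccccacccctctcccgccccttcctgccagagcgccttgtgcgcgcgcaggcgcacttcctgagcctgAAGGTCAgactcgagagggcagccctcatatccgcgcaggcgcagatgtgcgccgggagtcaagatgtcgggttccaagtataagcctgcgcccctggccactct

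In every library the summed level of the 35 transcripts was between 6712 and 9059 CPM, with a median of 7681 CPM. The highest sums were those of library H, at 9059 CPM, and library C, at 8787 CPM. The lowest was that of library D, at 6712 CPM. The other libraries had 7071 CPM (G), 7114 CPM (E), 7294 CPM (B), 7681 CPM (I), 7739 CPM (A) and 7942 CPM (F). Highest and lowest differed 1.35-fold. The top and bottom libraries depended on the scaling: with trimmed mean of M-values (TMM) factors, library C was highest and library G lowest, 1.31-fold apart. On the column-sum scale, library D also had the lowest sum of the 8 brown adipocyte markers, at 3129 CPM against 3493 to 4297 CPM elsewhere. The same held for the 5 general adipocyte markers, at 5088 CPM within a range up to 7092 CPM. Library D had the lowest TMM factor (0.908), and marker sums under other scalings are not given. Library C had the lowest summed muscle markers and library H the highest summed macrophage markers. The part of these markers in the result was not tested. In bulk tissue, fewer cells of a type and less RNA per cell cannot be told apart.

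The pattern was shared by nearly all members. Library C or H held the highest value of 34 of the 35 genes, with 16 in library C and 18 in library H. The exception was Ndufs6, which was highest in library F. Libraries C and H also had the highest sums of these same genes, and the share of all genes highest there is not given. Library D held the lowest value of 21 genes, but this depended on the scaling: it was lowest for 4 genes with TMM factors, where library G was lowest for 17, for 5 with DESeq2 size factors, and for 9 without mitochondrially encoded genes in the totals. Libraries C and H together held the highest value of 33, 33 and 29 genes under those scalings.

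**Figure D1:**
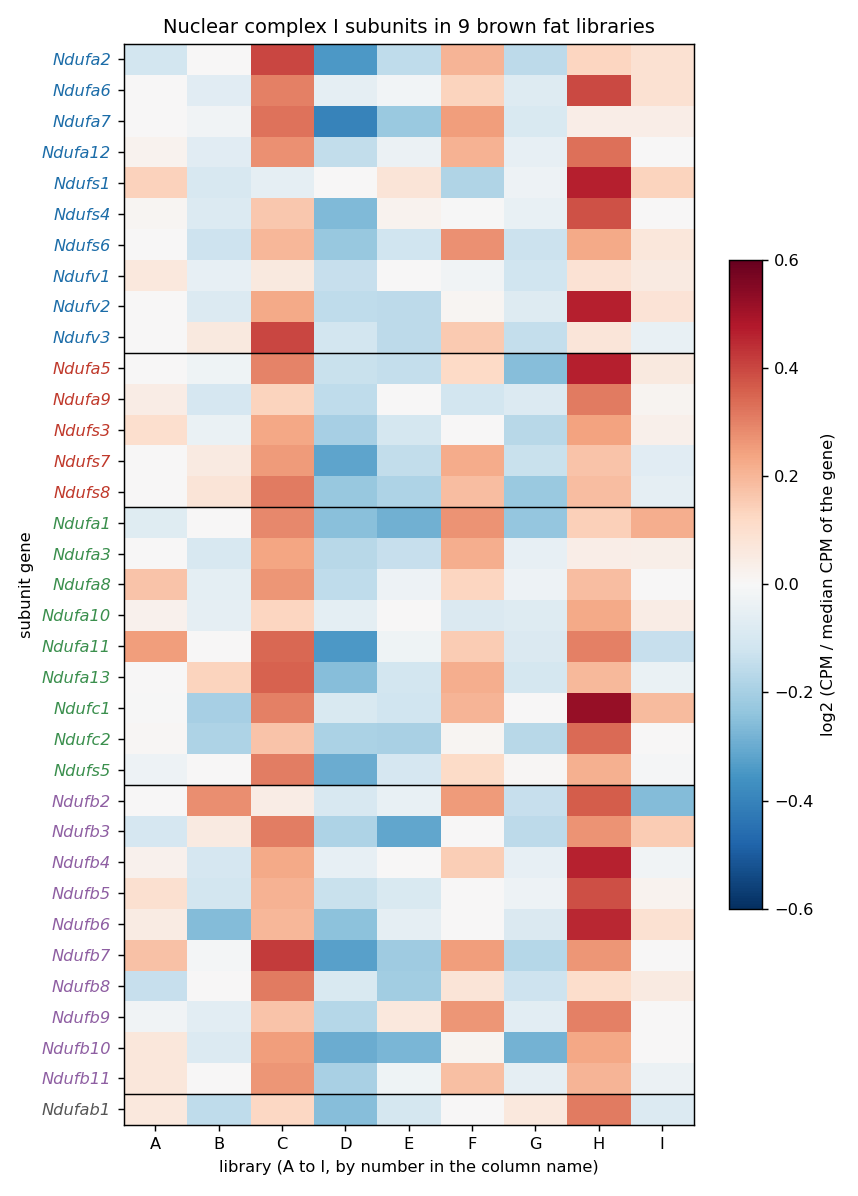
Level of each subunit transcript (vertical axis, grouped into N module, Q module, proximal membrane arm, distal membrane arm and Ndufab1 by horizontal lines and label colours) in each of 9 libraries (horizontal axis), as log2 of CPM over the gene's median CPM. Libraries C and H are above the median for nearly every gene, and library D holds the lowest value of 21 of the 35 genes on this scale, though of 4 with TMM factors.

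Single genes varied little. The fold between a gene's highest and lowest library had a median of 1.48 over the members and ran from 1.17 to 1.68. With a pseudocount of 0.5 CPM, the median was 1.48 for members and 1.68 for all 13227 genes that passed the filter. Much of that gap went with abundance: among the 2492 genes with a mean between 50 and 1000 CPM, where 34 of the 35 members lie, the median was 1.498. For all 35 members the 95% exact Poisson intervals of the lowest and the highest library, which cover counting error only, did not overlap. The libraries compared were each gene's own extremes, and the share of all genes with such a separation is not given.

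Among the N module genes, Ndufv1, which binds the flavin and NADH, was the steadiest of all members, at 447 CPM at its lowest, 492 CPM at the median and 523 CPM at its highest. Its highest library was only 1.17-fold above its lowest. Ndufv2, an iron-sulfur core subunit beside it, ranged from 373 through a median of 416 to 574 CPM, and library H stood above the others. Ndufs1, the largest core subunit and carrier of several iron-sulfur clusters, had 423 CPM in library F, a median of 478 CPM, and 662 CPM in library H, a value apart from the other 8 libraries, which ended at 527 CPM. Ndufa2, an accessory subunit with a thioredoxin-like fold, had the widest range of the members on the column-sum scale, 1.68-fold. It ran from 58.6 CPM in library D through a median of 74.5 to 98.5 CPM in library C. With TMM factors the range of Ndufa2 was 1.56-fold, below those of Ndufa5 (1.63) and Ndufb7 (1.62). Ndufa7, another accessory subunit, differed 1.65-fold, from 119 through 157 to 197 CPM. Ndufa6, a protein of the LYR family that binds the mitochondrial acyl carrier protein, ranged from 214 through 226 to 297 CPM. Ndufs4 and Ndufs6, accessory subunits whose human counterparts are mutated in inherited complex I deficiency, had medians of 127 and 147 CPM.

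In the Q module, the core subunits Ndufs7 and Ndufs8, which carry the iron-sulfur clusters nearest to ubiquinone, had nearly the same levels and profile. Ndufs7 ranged from 204 through 255 to 304 CPM and Ndufs8 from 214 through 250 to 310 CPM. Both were highest in library C and lowest in library D. Ndufs3, a core subunit that helps form the ubiquinone-reducing part, ranged from 230 through 264 to 312 CPM. Ndufa9, an accessory subunit that binds NADPH, ranged from 260 through 288 to 357 CPM. Ndufa5 varied most in this module, 1.65-fold, from 77.1 CPM in library G through 92.0 to 127 CPM in library H.

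In the proximal membrane arm, Ndufa10 had the highest median of the 35 genes by counts, at 593 CPM, and the second smallest range, from 558 CPM in library F to 694 CPM in library H, 1.24-fold. Ndufa3, a small membrane subunit, ranged from 208 through 234 to 276 CPM, 1.33-fold. Ndufa8, a subunit of the intermembrane space face with paired cysteine motifs, ranged from 196 through 218 to 262 CPM, 1.34-fold. These 3 genes and Ndufv1 were the steadiest members. Ndufc1 differed 1.65-fold, from 73.3 CPM in library B through 84.1 to 121 CPM in library H. Ndufa13, also known as GRIM-19, had 157 to 239 CPM, Ndufa11 123 to 198 CPM, and Ndufs5, another subunit with paired cysteine motifs, 69.6 to 106 CPM. Ndufa1, encoded on the X chromosome, had 80.9 CPM at its lowest, a median of 98.8 CPM and 121 CPM at its highest.

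In the distal membrane arm, Ndufb7 varied most, 1.68-fold, from 130 CPM in library D through 163 to 218 CPM in library C. Ndufb8, a subunit often probed as a marker of assembled complex I, ranged from 261 through 302 to 374 CPM, and Ndufb11, also on the X chromosome, from 253 through 289 to 347 CPM. Ndufb2 stood far below every other member: it had 7.15 CPM in library I, a median of 8.57 CPM and 11.0 CPM in library H, from 118 to 196 reads. The next lowest median was 69.3 CPM, for Ndufb4. Gene models of GENCODE release M21 (assembly GRCm38, which differs from the submitters' build GRCm39) place 2.6% of the Ndufb2 exon bases under Gm42420 on the same strand. The part of this overlap in the low count was not tested. Ndufab1, the mitochondrial acyl carrier protein, which serves complex I at more than a single site and also fatty acid synthesis, ranged from 312 through 373 to 463 CPM.

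The counts of some members are less certain than the others. Same-strand exon overlap also touched Ndufb9 (19.5% of its exon bases, Gm49356) and Ndufb8 (4.3%). Opposite-strand overlap covered 39.0% of the exon bases of Ndufb6 and 30.0% of those of Ndufa13, and whether counting used the strand is not given in the sources used here. Near-identical copies, with at least 95% identity over 200 or more bases, were found for 7 members. Their own counts were low: Gm12251, the copy of Ndufs3, had 427 reads over all libraries against 40757 for Ndufs3 itself, and Ndufb4c, identical to Ndufb4 over 390 bases, had 30 against 11192.

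Levels of different genes were compared per length. The choice of length mattered. Per kilobase of exon union, the highest medians were those of Ndufb11 (318 CPM per kilobase), Ndufa8 (253), Ndufa1 (236) and Ndufa3 (229). The lowest were those of Ndufb5 (45.9 CPM per kilobase), Ndufb4 (36.2), Ndufb7 (36.0) and Ndufb2 (1.52). Per kilobase of coding sequence, the highest medians were Ndufab1 (796 CPM per kilobase), Ndufa3 (779), Ndufb11 (637) and Ndufa6 (575), and the lowest were Ndufv3 (228), Ndufs1 (219), Ndufb4 (179) and Ndufb2 (27.2). Ndufab1 moved from place 30 of 35 by exon union to place 1 by coding length, and Ndufb7 from place 34 to place 14. By the length of a single GENCODE transcript, Ndufab1 was again at place 30 and Ndufb7 at place 11. Ndufb2 was last, and Ndufb11 and Ndufa3 were among the first 4, on all 3 scales.

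Per coding kilobase, the 34 genes other than Ndufb2 lay within 4.44-fold of each other, and the lower and upper quartiles of all 35 were 291 and 448 CPM per kilobase. Ndufb2 was 6.58-fold below the next gene. Per kilobase of exon union these folds were 8.83 and 23.6, and per kilobase of a single transcript 9.89 and 34.3. The 6 core subunits, which carry the redox centres or line their path, had a median of 366 CPM per coding kilobase and the 29 accessory subunits one of 371. Per kilobase of exon union the medians were 167 for core and 130 for accessory subunits, and per kilobase of a single transcript 251 and 212. Across the members, log2 CPM rose with log2 coding length (r = 0.67 across 35 genes) while log2 CPM per coding kilobase showed almost no relation to it (r = -0.02); genes are not independent replicates, and no test was made. Neighbours in the order by exon union mostly could not be separated: of 34 neighbouring pairs, 8 had the same order in all 9 libraries, and the ranges of only 1 pair, Ndufb7 and Ndufb2, did not overlap.

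**Figure D2:**
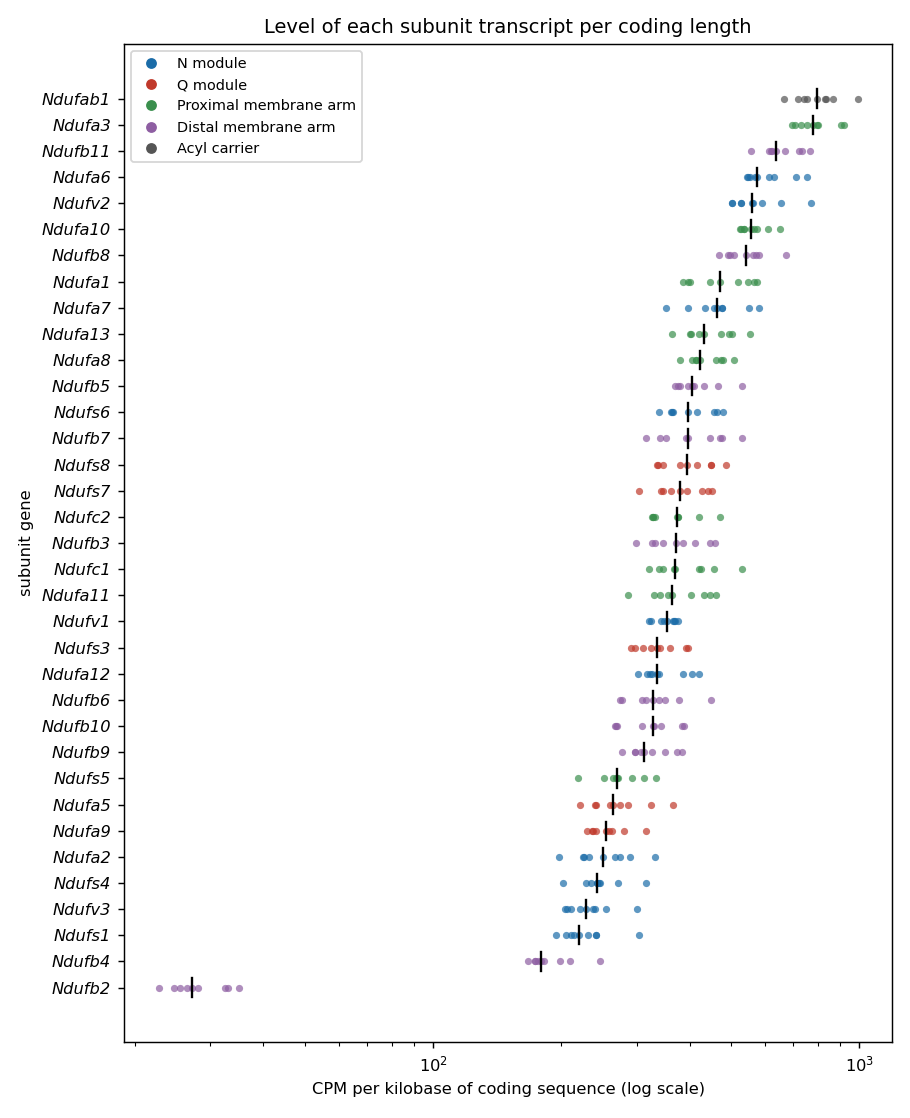
CPM per kilobase of coding sequence (horizontal axis, log scale) for each subunit gene (vertical axis), with a point for each of 9 libraries, a black bar at the median and colours for the modules. Of the 35 genes, 34 lie within 4.44-fold of each other by median, and Ndufb2 lies 6.58-fold below the next.

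The proportions among the subunit transcripts were steadier than their levels. Each gene's share of the summed 35, which does not depend on how a library is scaled, had a median fold range of 1.21, from 1.10 for Ndufs3 to 1.53 for Ndufb2. In 34 of 35 genes the share varied less than the level. Ndufv1 was the exception, at 1.20-fold for the share and 1.17-fold for the level. A smaller range of shares largely follows from dividing by a sum of genes that vary together. Ndufs3 held 3.32% to 3.66% of the sum and Ndufa12 1.94% to 2.17%. Ndufa10 was the largest component, at 7.02% to 8.49%. Ndufs1 moved more, from 5.24% in library C through a median of 6.80% to 7.30% in library H. The modules kept their proportions within narrow limits: the N module held 33.6% to 35.1% of the sum, the Q module 14.6% to 15.7%, the proximal arm 23.0% to 24.0%, the distal arm 21.2% to 22.5%, and Ndufab1 4.59% to 5.50%.

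The subunit transcripts rose and fell together. Over the 9 libraries the Pearson correlation of log2(CPM + 0.5) between 2 members had a median of 0.773 over 595 pairs, and the median of Spearman's rho was 0.767. Of these pairs, 531 (89.2%) had r above 0.5, against 14.2% of all pairs of the 13227 genes, whose median r was 0.051. The comparison with all pairs was not matched for abundance, although 34 of the 35 members have a mean between 50 and 1000 CPM. The points of every pair share the same libraries, depth and scaling, so these values are a description without a test. Pairs within a module were no closer than pairs across modules, with a median r of 0.740 over 136 pairs and of 0.780 over 459 pairs. Libraries C and H carried part of the pattern: without both, the libraries farthest from the median sum, the median r was 0.607 over the other 7.

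The closest pairs crossed the modules. Ndufa13 and Ndufs7 had r = 0.983 and rho = 1.0, Ndufs3 and Ndufb10 had r = 0.980 and rho = 0.967, and Ndufc2 and Ndufv2 had r = 0.977 and rho = 0.95. Ndufa12, Ndufs3 and Ndufb10 had the highest median r with the other members, at 0.859, 0.840 and 0.837. The lowest were Ndufs1 (0.287), Ndufb2 (0.457) and Ndufv1 (0.672). All 6 pairs with r below 0 contained Ndufs1, the lowest being Ndufs1 with Ndufv3 (r = -0.177, rho = -0.30). Against the sum of the other 34, Ndufs1 had r = 0.374, and without library H r = -0.222. Members other than Ndufs1 and Ndufb2 had r between 0.740 and 0.962 with the sum of the others.

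**Figure D3:**
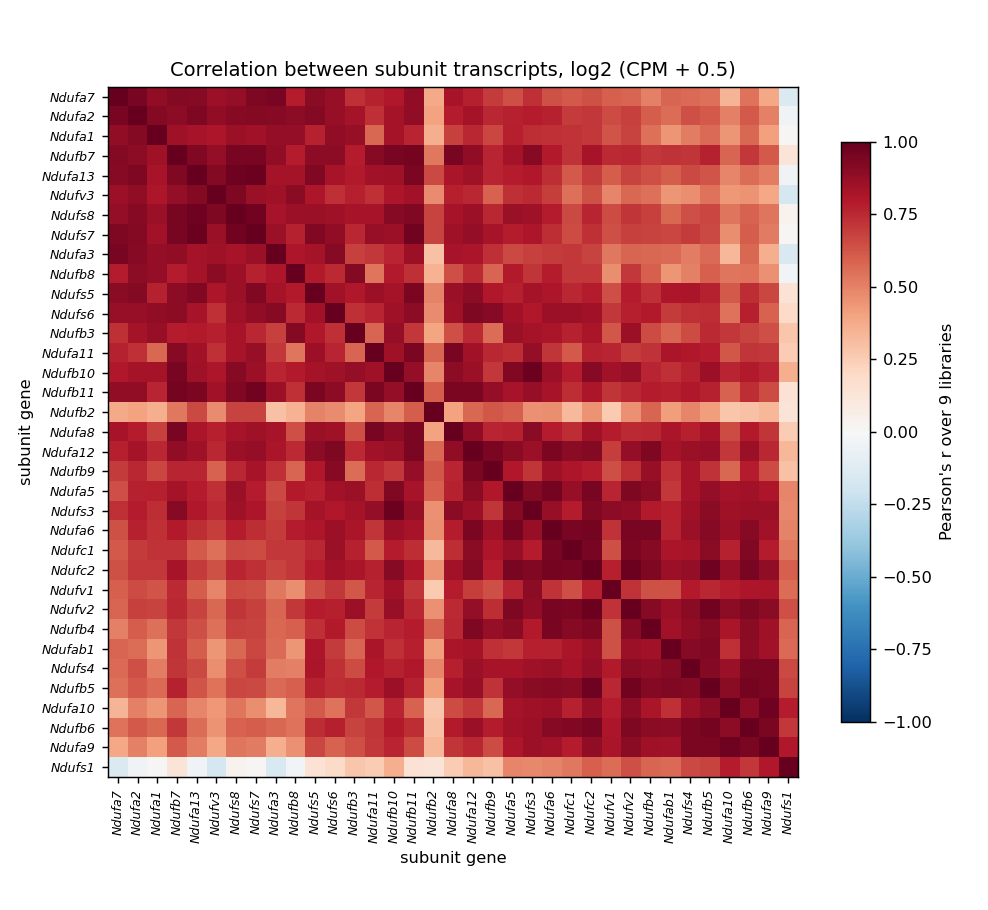
Pearson's r over 9 libraries between every 2 subunit transcripts (both axes list the 35 genes in the order of their weight on the main axis of share variation; colour gives r). Most pairs are above 0.5; Ndufs1 at the edge and Ndufb2 in the middle stand out with a median r of 0.287 and 0.457.

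The shares varied with GC content, the percentage of G and C bases in the transcript, and with coding length. A single axis took 43.3% of the variance of the log2 shares. Its weights ran from Ndufa7 (-0.32), Ndufa2 (-0.29) and Ndufa1 (-0.28) to Ndufb6 (0.17), Ndufa9 (0.19) and Ndufs1 (0.43), and correlated across the 35 genes with GC content at r = -0.55 and with log2 coding length at r = 0.46. GC content of the members ran from 42.0% for Ndufv2 to 60.4% for Ndufa13. Within library H the deviation of a gene's share from its median fell with GC content (r = -0.64 across the 35 genes), and within libraries C and F it rose (r = 0.44 and 0.41). With log2 coding length, r was -0.60 in library F, -0.44 in library C, 0.44 in library E, 0.38 in library D and -0.10 in library H. The choice of length mattered here too. With the log2 length of a single transcript, r was -0.47 in F, -0.56 in C, 0.39 in E, 0.41 in D and 0.33 in H. For GC content, the 12100 other protein-coding genes had r of the same sign as the members in 8 of the 9 libraries. Their r with GC content was -0.20 in library H, 0.14 in library C and 0.15 in library F. The exception was library G, at -0.22 for the members and 0.02 for the other genes. The part of GC content or length in the shares was not tested.

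**Figure D4:**
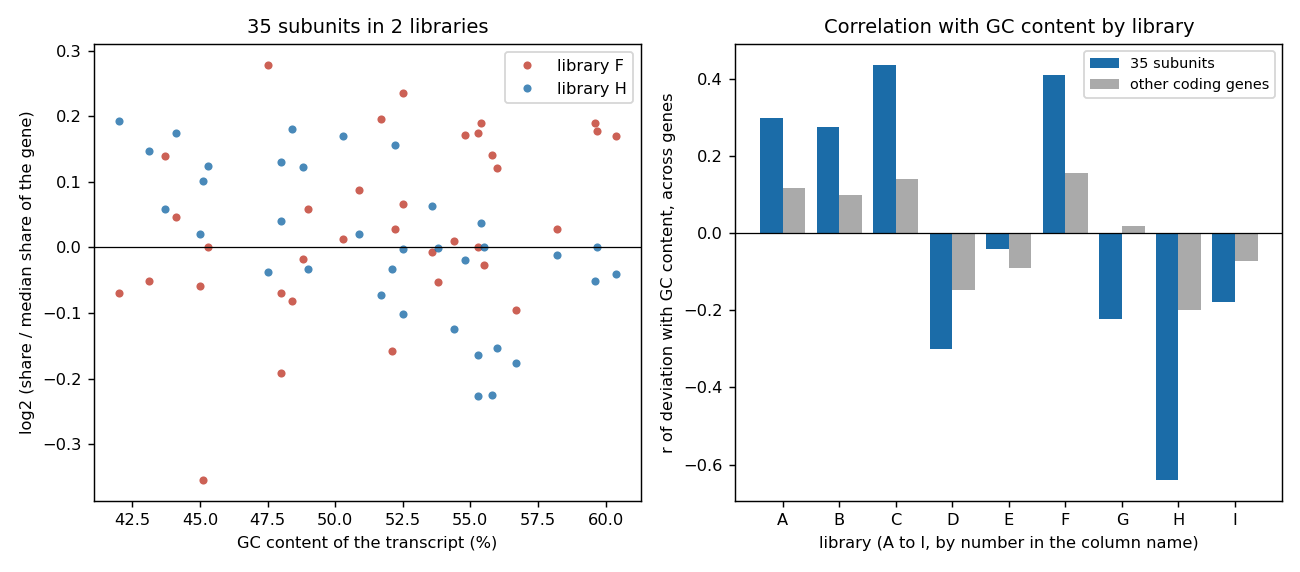
Left, log2 of each gene's share of the summed subunits over its median share (vertical axis) against GC content of its transcript in percent (horizontal axis) in libraries F and H, a point for each of 35 genes. Right, Pearson's r across genes between the deviation and GC content in each library, for the 35 subunits and for 12100 other coding genes; r is -0.64 for the subunits in library H and 0.41 in library F.

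The other parts of the complex I pathway followed less closely. All 14 assembly factors examined passed the filter, and their r with the summed subunits had a median of 0.490, from 0.042 for Ndufaf7, a methyltransferase that modifies a core subunit, to 0.847 for Ndufaf8. Of the 14, 7 had r above 0.5, and Foxred1, an assembly factor with a flavin-binding fold, had r = 0.846. Over all 13192 genes outside the list, the median r with the sum was 0.064, and that of the members with the sum of their fellows was 0.865. This comparison was not matched for abundance either. Under TMM factors the median over the assembly factors was 0.331, and 3 of the 14, among them Ndufaf7, had r below 0. On the column-sum scale, the summed assembly factors ranged from 434 CPM in library D to 580 CPM in library H. On that scale the same libraries were lowest and highest for the summed subunits. With TMM factors, the summed subunits were lowest in library G and highest in library C.

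The 7 mitochondrially encoded subunits had r between -0.692 and 0.243 with the summed nuclear subunits, with a median of -0.156, and 5 of the 7 were below 0. Their sum was highest in library B, at 162000 CPM, and lowest in library A, at 120600 CPM. Since they take a large part of all counts, a higher sum lowers the CPM of every nuclear gene, and scaling without mitochondrially encoded genes gave the nuclear subunits a median pairwise r of 0.811. The sign of the relation between the classes changed with the scaling: the median r was 0.120 with TMM factors, 0.126 with DESeq2 size factors and 0.408 without mitochondrially encoded genes in the totals, each with 2 of the 7 below 0. Per kilobase of gene length, mt-Nd1 and mt-Nd2 had medians of 39830 and 38850 CPM, while mt-Nd3 had 9.80, mt-Nd4l 5.64 and mt-Nd6, encoded on the opposite strand, 49.0. Over all libraries mt-Nd3 had 520 reads and mt-Nd4l 361, against 5731904 for mt-Nd1, so r for mt-Nd3 and mt-Nd4l rests on few reads. Gene lengths were 348 bases for mt-Nd3 and 297 for mt-Nd4l, and mt-Nd4l overlaps mt-Nd4 in the mitochondrial genome. The part of length or overlap in these low counts was not tested.

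Of 7 regulators of mitochondrial genes, Esrra, an estrogen-related receptor, had r = 0.625 with the summed subunits, Tfam, which packages and transcribes mitochondrial DNA, had 0.477, and Ppara, a fatty acid receptor, had -0.804. Ppargc1a, the coactivator PGC-1α, differed 8.41-fold over the libraries, from 46.7 to 392.4 CPM, with r = -0.138. The remaining 3, Nrf1, Gabpa and Ppargc1b, had r = 0.009, 0.003 and -0.362. Under TMM factors Esrra had 0.493, Ppara -0.562, Nrf1 -0.412 and Gabpa -0.339, and without mitochondrially encoded genes in the totals Ppargc1b had 0.173. No test was made of these values.

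**Figure D5:**
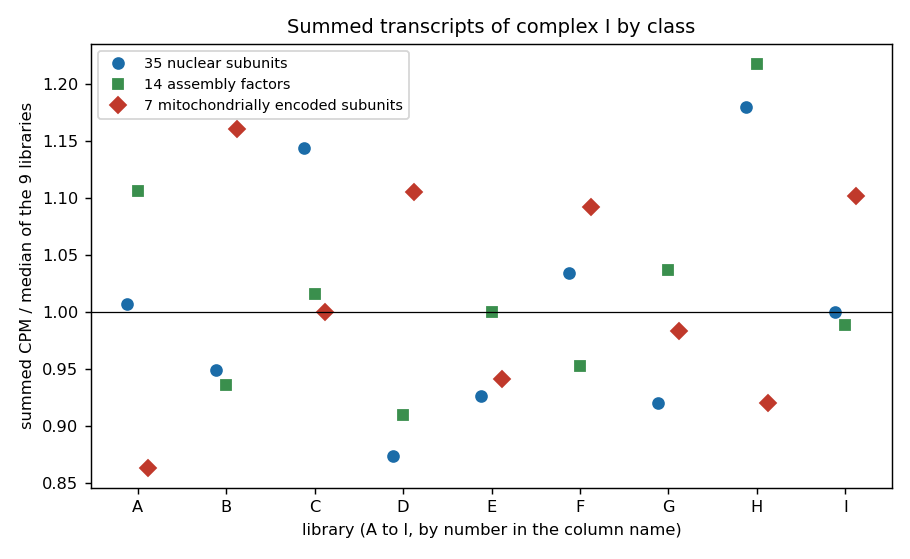
Summed CPM of 35 nuclear subunits, 14 assembly factors and 7 mitochondrially encoded subunits, each over its median of 9 libraries (vertical axis), by library (horizontal axis). Nuclear subunits and assembly factors are both highest in library H and lowest in library D on the column-sum scale, while the mitochondrially encoded subunits are highest in library B and lowest in library A.

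The 5 genes outside the list whose profile was most like the summed subunits over the 9 libraries were Atp5c1 (r = 0.980), Atp5h (0.973), Cox5b (0.967), Edf1 (0.966) and Atp5o (0.965). Atp5c1, Atp5h and Atp5o encode subunits of ATP synthase, Cox5b a subunit of cytochrome c oxidase, and Edf1 a transcriptional coactivator. Atp5c1 ranged from 426 CPM in library D through 470 to 556 CPM in library H. Of these 5, Atp5c1 was among the first 5 under every scaling tried, while Edf1 and Cox5b were not with TMM factors, DESeq2 size factors or totals without mitochondrially encoded genes. In all, 76 of the 13192 genes (0.576%) had r above 0.9 with the sum, and so had 12 of the 35 members with the sum of the others. These counts were 49 and 9 with TMM factors, 50 and 11 with DESeq2 size factors, and 115 and 19 without mitochondrially encoded genes in the totals.

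The correlation of the members with Ucp1 was not given. The log2 Ucp1 levels fell into separate clusters of 4 and 5 libraries, and neither reached the 6 libraries needed for a correlation.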

How the data were processed

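Gene counts of 9 brown fat libraries were used as the authors deposited them: whole-number counts per Ensembl gene identifier, unnormalised. Per the submitters' processing notes, FastQC, STAR and DESeq2 were used with the build GRCm39; the sources used here give no versions, annotation release, strandedness or way of counting. A column was given to a guide only by its name, and none could be. All 9 value columns were used as brown fat libraries, because their names end in the tissue's abbreviation and their number equals that of the samples.

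Counts were scaled to a column sum of 1000000 (CPM), and correlations used log2(CPM + 0.5) of genes with a mean count of at least 10. Symbols matched 52083 of 55416 identifiers; the others held 0.187% of counts. No row lacked a gene name. Exon, coding and transcript lengths and GC content came from GENCODE M21, near-identical copies from blastn 2.17.0, and promoter windows from RefSeq. Alternative scalings used edgeR 4.0.16 (TMM) and DESeq2 1.42.0 (size factors), in R 4.3.3, beside Python 3.11.15, numpy 2.4.6, pandas 2.3.3 and scipy 1.17.1. The correlation steps were tested on simulated data. No test between groups was made.

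Genes given in full were, by rule, the 4 members highest and the 4 lowest per length, the 4 with the largest and the 4 with the smallest fold range (a tie added 1), and the 3 with the highest and the 3 with the lowest median r with the others. The 5 most similar genes were taken by r with the summed members. A part of the rule on r with Ucp1 could not be used. Other members named, and the motifs, were chosen after the values were seen. Members and lists were chosen with earlier results of these data known.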

Additional observations from a re-analysis of the deposited data

Results flagged for a closer look

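The sets of 9 values examined numbered 104 and included levels and shares of the members, their sum, and the other genes of the pathway. Of these 104 sets, 8 held a library whose gap to its nearest neighbour was over 0.493 of the whole range. Chance gives about 1 in 20 such sets, but levels and shares of the same genes are not independent sets. Library H held 4 of the 8. Its Ndufs1 level was 662 CPM, against 423 to 527 CPM in the other libraries, and its Ndufv2 share of the summed subunits was 6.34%, against 5.24% to 5.73%. It also had 15.5 CPM of Ndufaf2, an assembly factor related to Ndufa12, against 9.30 to 12.2 CPM, and 115 CPM of Foxred1, against 88.4 to 101 CPM. In library F the share of Ndufs6 was 2.24%, against 1.86% to 2.01% elsewhere. In library A Timmdc1, a membrane arm assembly factor, was at 40.9 CPM against 26.1 to 31.8 CPM, and mt-Nd4l at 7.84 CPM against 0.99 to 2.42 CPM. In library E Ppargc1a was at 392.4 CPM, against 46.7 to 150 CPM.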

How the results depend on the processing

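The median pairwise r of 0.773 was 0.750 with TMM factors, 0.756 with DESeq2 size factors, 0.811 without mitochondrially encoded genes in the total and 0.774 without Ucp1 in it. The fold range of the summed subunits, 1.35, was 1.314, 1.315, 1.337 and 1.347 under those 4 scalings. Leaving out each library in turn gave 0.732 to 0.805 for the median r, 1.28 (without library D) to 1.35 for the sum, 1.37 (without library H) to 1.48 for the median fold range of single members, and 1.20 to 1.21 for that of their shares. Without libraries C and H, an alternative chosen after seeing the data, the median r was 0.607, the sum differed 1.18-fold and the median fold range was 1.29. The r of Ndufs1 with the sum of the others changed sign, from 0.374 to -0.222, without library H, and reached 0.594 without library C. Levels per length moved for all 35 members with coding in place of exon-union length. The median r of the mitochondrially encoded subunits with the sum, -0.156, became 0.120 with TMM factors, 0.126 with DESeq2 size factors and 0.408 without mitochondrially encoded genes in the total; these settings for counts and lists were added after seeing the data. The cause of these changes was not tested. Against the column sum, TMM shifted the libraries by -0.06 to 0.14 on the log2 scale, and leaving out mitochondrially encoded genes by 0.36 to 0.60.

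No paired analysis was possible because no column shows a guide or a replicate number. Other filters, pseudocounts, Spearman's rho and edgeR for the correlation with Ucp1 were not run, since that correlation was not given. Coding lengths came from GENCODE in place of RefSeq proteins. Counting error was small beside the spread, except for Ndufb2, whose interval was 5.92 to 8.57 CPM in its lowest library and 9.54 to 12.7 CPM in its highest.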

Other observations

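Ucp1, which encodes the uncoupling protein of brown fat and is the target of the UCP1 guide, had 3848 CPM in library B, 4620 CPM in library C, 3937 CPM in library I, 2704 CPM in library D, 3652 CPM in library F, 396 CPM in library E, 606 CPM in library G, 445 CPM in library H and 459 CPM in library A. The values fell into clusters of 4 and 5 libraries, separated by a gap of 2.16 on the log2 scale, 60.9% of the whole range of 3.54. No library was given to a guide from these values, and no other value was compared between the clusters.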
